A study of Caenorhabditis elegans with 12 samples.

Results

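The comparison set a Caenorhabditis elegans strain carrying a TDP-43 transgene against the non-transgenic N2 strain, in whole-body poly-A RNA. It used 8 of the 12 libraries of the series: 4 of the TDP-43 strain, which carries Psnb-1::TDP-43 together with the marker construct Pmyo-2::dsRED, and 4 of wild type (wildtype N2). All 8 are labelled larval stage 4 and came from worms raised at 20 °C from hypochlorite-treated eggs on 5XPEP plates. In the TDP-43 strain the snb-1 promoter drives the transgene in neurons, and the myo-2 promoter drives a dsRED marker in pharynx muscle. Wild type carries neither, so transgene, marker and strain history cannot be told apart. The labels name a single transgenic strain and do not say whether the libraries are separate cultures; p-values therefore cover only the spread between these libraries, which may be technical. A further group, with a TDP-43 altered in its nuclear localization signal, enters only 2 alternative fits.

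The human protein TDP-43 binds RNA and acts in splicing and RNA stability, and its aggregation in neurons is a hallmark of amyotrophic lateral sclerosis. Neurons of the worm are few and small, and most RNA of a whole animal comes from gonad, gut, epidermis and muscle. A change in bulk RNA can reflect fewer cells of a type or less RNA per cell, which cannot be told apart here.

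Total counts ranged from 20671982 to 26815837 per library. Replicate 4 of each group was poor in yolk and oocyte RNA, and a stage term with 2 levels separated these libraries from replicates 1 to 3. The term's threshold was a mean of 6 log2 CPM (counts scaled to library size) over 24 oocyte and eggshell genes. TDP-43 replicate 4 had 3.73 and wild type replicate 4 had 2.72, while the lowest library above the threshold, wild type replicate 1, had 8.05. The TDP-43 library was therefore the less depleted of the pair. Among replicates 1 to 3 the oocyte level was 8.62 to 9.29 in TDP-43, against 8.05 to 9.22 in wild type. CPM of col-19, a collagen gene of the adult cuticle, was 1562 to 2618 in TDP-43 replicates 1 to 3 and 2121 to 2712 in the matching wild type libraries, against the larval stage on their labels. It was 43.3 in TDP-43 replicate 4 and 34.8 in wild type replicate 4. With strain held constant, 8448 of 17087 genes differed between the stage levels (49.4%; 23.7% higher and 25.7% lower in replicate 4), a description of what the term takes up.

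RNA beside the construct promoters was found in the labelled strain. An annotated non-coding RNA near snb-1, T10H9.10 (chromosome V, 6659021 to 6659161), had 71, 31, 66 and 74 raw counts in TDP-43 and 0 in each wild type library. The sum over TDP-43 was at least 75.5-fold higher than the limit of 3 counts over the wild type group. T18D3.14, beside myo-2, had 3, 9, 16 and 10 counts in TDP-43 and 0 in each wild type library, at least 11.9-fold higher on the same limit. The endogenous genes did not pass the test. Synaptobrevin gene snb-1 averaged 133 ± 12.5 CPM in TDP-43 and 148 ± 14.8 CPM in wild type, and tdp-1, the worm's own TDP-43 gene, averaged 106 ± 42.2 CPM in TDP-43 and 88.9 ± 44.2 CPM in wild type (SD, n = 4 each).

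With the stage term, edgeR's quasi-likelihood test called 12 of 17087 genes at an adjusted p under 0.05 (0.0702%), 7 higher (0.041%) and 5 lower (0.0293%) in TDP-43. The lower genes were a secreted immunoglobulin-domain gene, a pair of neuropeptide genes, the gene for the GABA-synthesizing enzyme and a transthyretin-related gene. The higher ones were 4 neighbouring pseudogenes, the promoter-linked T10H9.10 and a pair of protein-coding genes. Groups did not overlap over the 8 libraries for 10 of the 12, against 1.68% of all genes tested (0.55% higher and 1.13% lower), and all 12 had the same direction in replicate 4. The 12 were chosen by p from these same libraries, so both counts describe them and are no separate support. At an unadjusted p under 0.05 there were 1083 genes (6.34%), 418 higher and 665 lower. Adding the replicate number as a block in place of the stage term gave 25 genes (0.146%), 14 higher and 11 lower, with all 12 among them. DESeq2 called 83 (0.486%), also with all 12 among them. The count was 3 without TDP-43 replicate 1 or 2 (0.0176% each) or TDP-43 replicate 3 (0.0178%). It was 6 when either replicate 4 library was left out (0.0337% each). Leaving out wild type replicate 1 gave 8 genes (0.0471%), replicate 2 of that strain 4 (0.0236%) and its replicate 3 24 (0.141%). Without the stage term 1 gene passed, zig-2 (0.00622%).

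**Figure D1:**
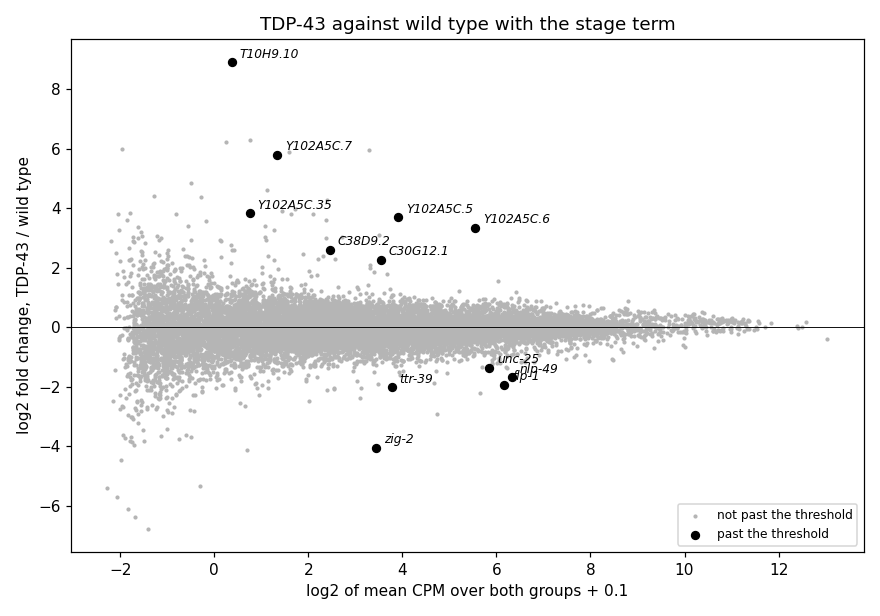
Each point is 1 of 17087 genes, with the log2 of its mean CPM plus 0.1 over both groups on the x axis and the log2 fold change of TDP-43 over wild type, fitted with the stage term, on the y axis. The 12 black, named genes passed the threshold: 7 lie above 0 and 5 below. T10H9.10 was at 0 in wild type, so its plotted height depends on the prior count.

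zig-2 (WBGene00006979, chromosome X, 12340377 to 12341438) belongs to a family of secreted proteins with immunoglobulin domains, some of which keep axons in place. Its CPM in replicates 1 to 4 was 1.06, 1.22, 1.59 and 1.00 in TDP-43, against 23.7, 24.4, 15.7 and 17.3 in wild type. All 4 TDP-43 libraries lay far below all 4 wild type libraries, with stage making little difference. The gene fell by 4.05 ± 0.29 on the log2 scale (SE; edgeR adjusted p 0.000432), and it passed in all 20 alternatives. Of 12 family members tested, 10 had negative log2 fold changes, and no other passed. In replicate 4, 8 of the 12 were higher in TDP-43. The fitted median of the family was -0.30, or -0.12 without TDP-43 replicate 2.

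flp-1 (WBGene00001444, chromosome IV, 9144705 to 9146128) encodes FMRFamide-like peptides that act on locomotion. CPM stood at 16.95, 18.6, 23.3 and 77.1 in TDP-43 and at 109, 92.2, 69.9 and 166 in wild type. Within each stage level TDP-43 lay below wild type, but TDP-43 replicate 4 was above wild type replicate 3. The gene fell by 1.93 ± 0.25 on the log2 scale (edgeR adjusted p 0.0257). It overlaps daf-10 on the opposite strand, and the strand setting of the counting is not given.

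nlp-49 (WBGene00019160, chromosome X, 5904653 to 5905345), a neuropeptide gene linked to arousal, showed the same order of libraries. It was at 22.1, 27.5, 32.7 and 81.2 CPM in TDP-43, against 125, 97.3, 73.6 and 186 CPM in wild type. Again only TDP-43 replicate 4 reached the wild type range. The log2 fold change was -1.68 ± 0.23 (edgeR adjusted p 0.0292).

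unc-25 (WBGene00006762, chromosome III, 12942651 to 12949883) encodes glutamate decarboxylase, which makes the inhibitory transmitter GABA. CPM was 22.8, 21.5, 35.2 and 48.7 in TDP-43 and 69.97, 63.2, 72.4 and 127 in wild type, with no overlap. It fell by 1.37 ± 0.20 on the log2 scale (edgeR adjusted p 0.047), and the call was lost in 13 of 20 alternatives. ttr-39 (WBGene00007304, chromosome IV, 10088367 to 10089877), a transthyretin-related gene, had 4.07, 4.11, 7.21 and 6.14 CPM in TDP-43 and 22.7, 20.0, 18.9 and 25.6 CPM in wild type. It overlaps ndc-80 on the opposite strand. Like zig-2, ttr-39 was separated at both stage levels by a similar margin, with a log2 fold change of -2.01 ± 0.26 (edgeR adjusted p 0.0257).

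**Figure D2:**
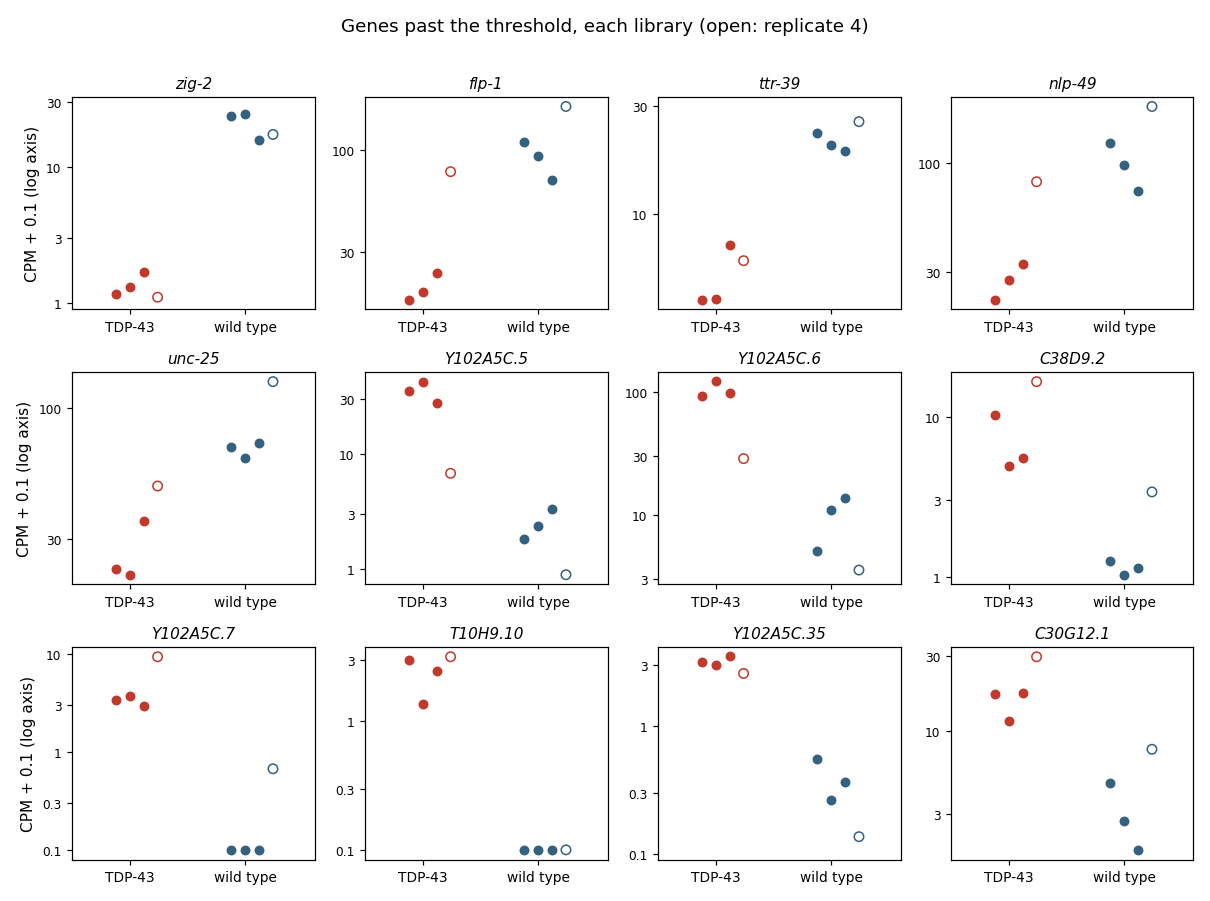
Panels show CPM plus 0.1 on log axes for the 12 genes past the threshold, with TDP-43 on the left and wild type on the right; filled points are replicates 1 to 3 and open points replicate 4. zig-2 and ttr-39 differ by a similar margin at both stage levels, while flp-1 and nlp-49 are high in replicate 4 of both strains.

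The higher pseudogenes lie side by side on chromosome V. Y102A5C.6 (WBGene00014955, 16929167 to 16930063) had 93.0, 121.7, 98.04 and 28.5 CPM in TDP-43 and 4.92, 10.8, 13.5 and 3.43 CPM in wild type. Next to it, Y102A5C.5 (WBGene00014954, 16928328 to 16928999) had 35.1, 42.2, 27.6 and 6.64 CPM in TDP-43 and 1.70, 2.23, 3.23 and 0.786 CPM in wild type. Both were lowest in replicate 4 of each strain, and the TDP-43 libraries stayed above the wild type libraries throughout. They rose by 3.33 ± 0.31 and 3.69 ± 0.31 on the log2 scale (edgeR adjusted p 0.00201 and 0.00127) and passed with any 1 library left out. Y102A5C.7 was at 0 in wild type replicates 1 to 3 and 0.572 CPM in wild type replicate 4, against 2.86 to 9.24 CPM in the 4 TDP-43 libraries. Y102A5C.35 lay between 2.47 and 3.40 CPM in TDP-43 libraries and between 0.0357 and 0.448 CPM in wild type. How reads shared by similar copies were counted is not given, so separate values of the 4 are uncertain. Within 100 kb of Y102A5C.5, 37 genes were tested. Of these, 6 were higher at an unadjusted p under 0.05, against 2.45% of all genes, and all 6 are named Y102A5C. They include the 4 called pseudogenes themselves, around which the window was set. Another 2 were lower at that level, fbxa-44 (-2.11 ± 0.83) and clc-13, which was at 0 in every TDP-43 library and averaged 0.359 ± 0.486 CPM in wild type (SD, n = 4).

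C38D9.2 (WBGene00008010, chromosome V, 17567150 to 17571742) is a protein-coding gene with no gene-class name. It had 10.1, 4.84, 5.43 and 16.42 CPM in TDP-43 and 1.16, 0.931, 1.04 and 3.29 CPM in wild type. The groups were separated, and replicate 4 was the highest library of each. Its log2 fold change was 2.59 ± 0.34 (edgeR adjusted p 0.0257). Its neighbour C18D4.6, within 100 kb, had a log2 fold change of 2.00 ± 0.38 and did not pass (edgeR adjusted p 0.186).

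C30G12.1 (WBGene00016273, chromosome II, 7299342 to 7301633) was at 17.2, 11.52, 17.4 and 29.5 CPM in TDP-43 and at 4.61, 2.59, 1.67 and 7.58 CPM in wild type. It rose by 2.27 ± 0.34 on the log2 scale (edgeR adjusted p 0.047), and the call was lost in 11 of 20 alternatives. Around it, 46 genes within 100 kb were tested, and 11 of them, itself included, were higher at an unadjusted p under 0.05, against 2.45% of all genes. Another 2 were lower, and the median of the 46 was -0.01. Neighbours on the higher side included mtch-1 (0.87 ± 0.15), a mitochondrial carrier homologue, cul-4 (0.72 ± 0.20), a ubiquitin ligase scaffold, and brf-1 (0.76 ± 0.25), an RNA polymerase III factor. F45E12.5 (0.98 ± 0.21) overlaps brf-1 in the annotation. None of the neighbours passed over all genes, and mtch-1 came nearest (edgeR adjusted p 0.145). mtch-1 was among the 16 genes called when all 12 libraries were fitted with the stage term (0.0938%).

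Across tissues the differences were described with 62 gene lists, read as counts and medians with no test of a list. Over all 17087 genes 49.9% had positive and 50.1% negative log2 fold changes, and the median was -0.00; 3.89% were lower and 2.45% higher at an unadjusted p under 0.05. The median was below 0 in 43 lists and above 0 in 19, and 41 kept their sign in every alternative. With any 1 library left out, the median of 12 lists stayed within 1.5 times its value. They were FMRFamide-like peptides, neuropeptide-like proteins, peptide processing, GABA, pharynx muscle, 3 detoxification families, nuclear hormone receptors, heat shock, ribosomal proteins and tubulins. Insulin-like peptides were not among them: their median of -0.23 was -0.15 without TDP-43 replicate 1 and -0.39 without TDP-43 replicate 3. Over all lists 5 members passed the adjusted threshold, all named above. The lists with the lowest medians concerned the pharynx, digestion, GABA neurons and conjugation of foreign compounds. The highest medians belonged to sperm, oocyte and germ line genes.

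**Figure D3:**
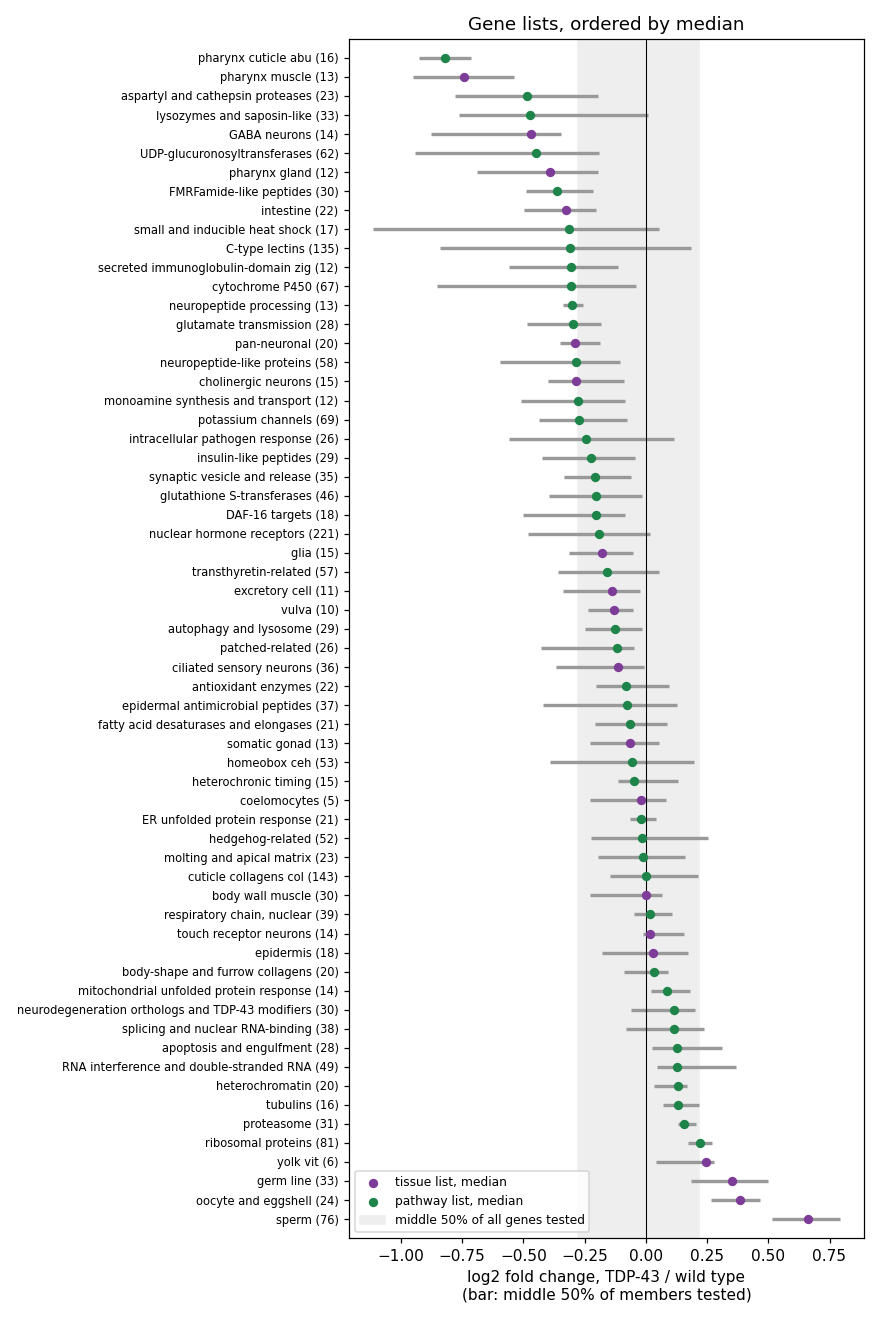
Points are medians of the log2 fold change of TDP-43 over wild type for each of 62 lists (number of members tested in brackets), and bars span the middle 50% of members. The pharynx cuticle list is lowest at -0.82 and the sperm list highest at 0.66; the grey band is the middle 50% of all genes tested.

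Neuropeptides signal between neurons after release from dense-core vesicles, and their precursors are cut and amidated on the way. Of 30 FMRFamide-like peptide genes tested, 29 had negative log2 fold changes, with a median of -0.36, and 5 were lower at an unadjusted p under 0.05 (16.7%). Beyond flp-1 these included flp-33 (-1.11 ± 0.27) and flp-13 (-0.66 ± 0.26), of which flp-13 acts in stress-induced sleep. Of 58 neuropeptide-like protein genes, 50 were negative (median -0.29) and 10 were lower at that level. The mean level of the FMRFamide-like list was 4.26, 4.28, 4.73 and 5.42 log2 CPM in TDP-43 and 5.08, 4.91, 4.95 and 5.44 in wild type. In replicates 1 to 3 each TDP-43 level was below each wild type level, with 4.73 and 4.91 the nearest values. The margin was small in replicate 4. There the median difference of the 30 genes was -0.01, against -0.46 in replicates 1 to 3, and 16 of 30 were lower in TDP-43. For neuropeptide-like proteins it was 0.08 in replicate 4 and -0.39 in replicates 1 to 3. The difference between stage levels has 1 library a strain on the poor side and was tested for single genes only.

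Processing enzymes were negative in 11 of 13 (median -0.30), and in replicate 4 7 of 13 were lower in TDP-43 (median -0.08). pghm-1, which amidates peptides, had 46.9, 47.01, 59.5 and 89.4 CPM in TDP-43 and 91.6, 95.3, 104.5 and 157.6 CPM in wild type. The groups did not overlap, with TDP-43 replicate 4 just under the lowest wild type library. The log2 fold change was -0.90 ± 0.16 and did not pass (edgeR adjusted p 0.18). It too was among the 16 genes of the 12-library fit.

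All 14 genes of the GABA list were negative, with a median of -0.47 over the fit and -0.57 in replicate 4. The list holds synthesis, transport and receptor genes, and 4 were lower at an unadjusted p under 0.05 (28.6%). Behind unc-25 came the vesicular GABA transporter unc-47 (-1.24 ± 0.31), its trafficking partner unc-46 (-1.17 ± 0.32) and unc-30 (-0.97 ± 0.37), the homeodomain factor that specifies these neurons. CPM of unc-47 was 2.57, 1.91, 1.74 and 7.56 in TDP-43 and 5.95, 4.25, 6.78 and 12.01 in wild type, lower in TDP-43 at each stage level. The median of the list stayed between -0.55 and -0.38 in the 20 alternatives.

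Other transmitter systems leaned the same way with smaller medians. Cholinergic genes were negative in 11 of 15 (median -0.29), glutamate genes in 24 of 28 (-0.30) and monoamine genes in 10 of 12 (-0.28). Leaving out 1 library moved each: the cholinergic median was -0.15 without TDP-43 replicate 2 and -0.19 without wild type replicate 1. The glutamate median was -0.19 without wild type replicate 1, and the monoamine median -0.18 without TDP-43 replicate 3. With the oocyte level as a covariate in place of the 2-level term, the medians were -0.16 (cholinergic), -0.22 (glutamate) and -0.28 (monoamine). In replicate 4 the monoamine median was 0.14, with 7 of 12 higher in TDP-43. The glutamate-gated chloride channel gene glc-1 had 4.69, 3.09, 2.83 and 5.47 CPM in TDP-43 and 12.18, 10.5, 7.14 and 14.9 CPM in wild type. No library of the groups overlapped, and the log2 fold change was -1.48 ± 0.29 without passing (edgeR adjusted p 0.22). Pan-neuronal genes, used in nearly all neurons, were negative in 18 of 20, with a median of -0.29 (-0.18 without TDP-43 replicate 2). unc-104, the synaptic vesicle kinesin, had -0.54 ± 0.19, and rab-3, a vesicle GTPase, -0.25 ± 0.19. rgef-1, another neuronal gene, had -0.48 ± 0.28. In replicate 4 the log2 differences of rab-3 and rgef-1 were 0.04 and 0.15. Potassium channels were negative in 58 of 69 (median -0.27, or -0.16 without wild type replicate 1; 12 of them lower in every comparison within replicates 1 to 3 and in replicate 4, against 4.32% of all genes, with 2.36% higher and 6.68% in either direction). Touch receptor neuron genes did not share this: 4 of 14 were negative, the median was 0.02 and none had an unadjusted p under 0.05. mec-7, the tubulin of their axons, had 87.4, 52.1, 72.6 and 214 CPM in TDP-43 and 69.4, 55.8, 54.7 and 144 CPM in wild type. Those ranges overlapped, and the log2 fold change was 0.32 ± 0.20. The touch receptor median ranged from -0.04 to 0.17 over the alternatives. Ciliated sensory neuron genes also leaned little: 28 of 36 were negative, with a median of -0.11. Of these 36, 2.78% were lower at an unadjusted p under 0.05, against 3.89% of all genes. In replicate 4, 14 of 36 were lower in TDP-43 (median 0.13). With the oocyte covariate the median was -0.04 for this list, -0.20 for pan-neuronal genes and -0.15 for potassium channels.

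**Figure D4:**
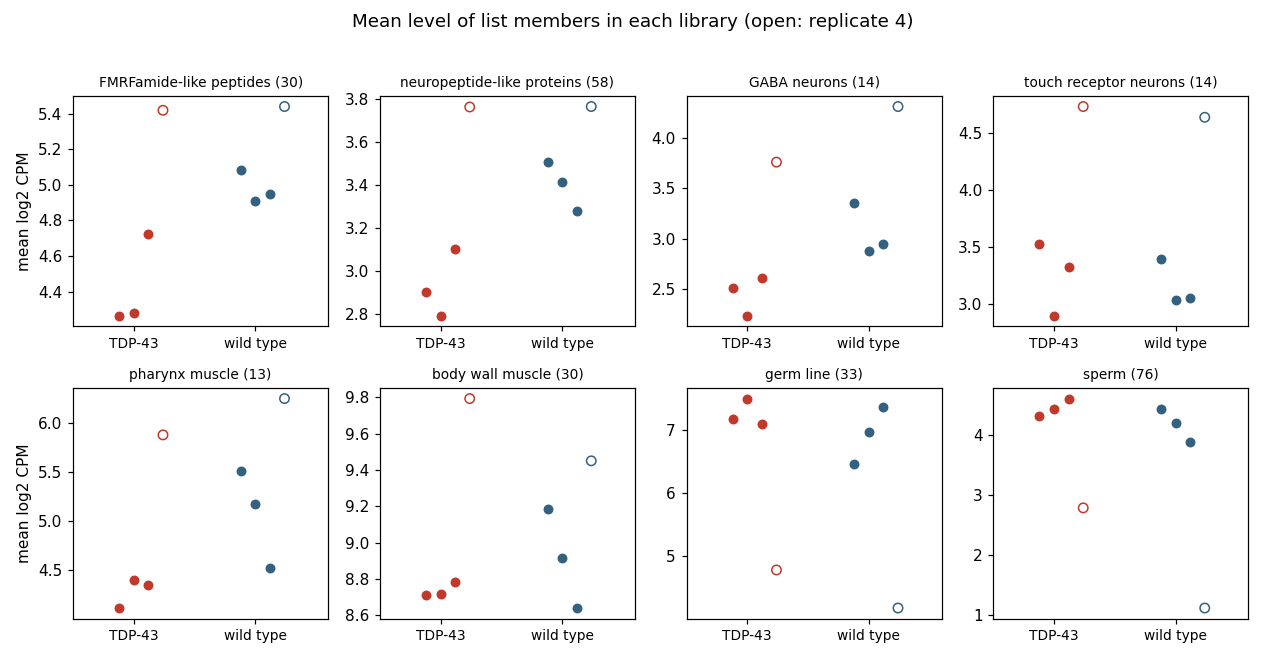
Each panel gives the mean log2 CPM of a list's tested members (number in brackets) in the 8 libraries, TDP-43 left and wild type right; open points are replicate 4. FMRFamide-like peptide levels in replicate 4 are 5.42 in TDP-43 and 5.44 in wild type, while GABA levels are 3.76 in TDP-43 and 4.31 in wild type.

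Pharynx muscle, which pumps food and carries the dsRED marker in TDP-43 only, had all 13 list members negative (median -0.74). Of these 9 were lower at an unadjusted p under 0.05 (69.2%), and none passed over all genes. The pharyngeal myosin gene myo-1 had 102.9, 183, 181 and 514 CPM in TDP-43 and 475, 375, 290 and 732 CPM in wild type. myo-2, whose promoter drives the marker, had 101, 185, 185 and 467 CPM in TDP-43 and 500, 328, 224 and 808 CPM in wild type. At each stage level TDP-43 was lower, and the wild type libraries differed widely among themselves. Their log2 fold changes were -1.09 ± 0.25 and -1.07 ± 0.28 (edgeR adjusted p 0.41 and 0.511). tnc-2, a troponin C, had -0.95 ± 0.28, and ceh-22, the homeodomain factor of pharynx muscle, -1.23 ± 0.38. The mean list level was 4.11, 4.4, 4.35 and 5.88 log2 CPM in TDP-43, against 5.52, 5.18, 4.52 and 6.25 in wild type. The median of the list ranged from -0.97 in replicates 1 to 3 alone to -0.53 without wild type replicate 1.

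Genes of the pharynx gland were negative in 10 of 12, with a median of -0.39. That median was -0.25 without TDP-43 replicate 1, -0.65 without TDP-43 replicate 3 and -0.20 with the oocyte level as a covariate. The abu genes of the pharyngeal cuticle were negative in 15 of 16, with the lowest median of all lists, -0.82. Their mean level in wild type was 6.25, 5.51, 3.47 and 6.15 log2 CPM, a wider spread than the 4.17, 3.91, 4.78 and 6.06 of TDP-43, and the groups overlapped. Without wild type replicate 1 the abu median was -0.48, and in replicate 4 it was 0.07.

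In body wall muscle 15 of 30 genes were negative and 15 positive, with a median of 0.00. The stage levels went opposite ways: 23 of 30 were lower in TDP-43 in replicates 1 to 3 (median -0.20), and 22 of 30 were higher in replicate 4 (median 0.41). The sign of this median changed in 7 of 20 alternatives. The ryanodine receptor gene unc-68 had -0.55 ± 0.23 and the troponin I gene tni-1 0.48 ± 0.23, and neither passed. Glia genes had a median of -0.18, which was -0.07 without TDP-43 replicate 2, -0.00 without wild type replicate 1 and -0.30 without wild type replicate 3. In replicate 4, 9 of 15 glia genes were higher in TDP-43.

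Intestinal genes were negative in 20 of 22 (median -0.33), none with an unadjusted p under 0.05. The median difference was -0.77 in replicate 4, with 19 of 22 lower in TDP-43, and -0.09 in replicates 1 to 3, with 14 of 22 lower. The fitted median was -0.13 without TDP-43 replicate 4, -0.15 without wild type replicate 4 and -0.09 without wild type replicate 1, which had the highest intestine level of replicates 1 to 3, 5.92 log2 CPM. It was -0.54 without TDP-43 replicate 1 and -0.52 without wild type replicate 3. Larger shares of single genes lay low in families of detoxification and defence. Among UDP-glucuronosyltransferases, which attach sugar to foreign compounds, 54 of 62 were negative (median -0.45) and 14 lower at an unadjusted p under 0.05 (22.6%). The cytochrome P450 family, which oxidizes such compounds, had 52 of 67 negative (median -0.30) and 13 lower (19.4%). cyp-35C1 had 26.04, 34.6, 21.7 and 23.4 CPM in TDP-43 and 52.3, 38.3, 54.1 and 45.1 CPM in wild type. Its ranges did not overlap, and the log2 fold change was -0.85 ± 0.22 (edgeR adjusted p 0.496). Glutathione S-transferases were negative in 35 of 46 (median -0.21), but in replicate 4 23 of 46 were lower in TDP-43 (median 0.07).

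Lysozyme and saposin-like genes, which act against bacteria, were negative in 24 of 33 (median -0.47), with 8 lower at an unadjusted p under 0.05. That median was -0.22 without TDP-43 replicate 2 and -0.27 without wild type replicate 1, and in replicate 4 18 of 33 were higher in TDP-43 (median 0.08). Aspartyl and cathepsin proteases of digestion were negative in 20 of 23 (median -0.49) and reached -0.24 without wild type replicate 1. In replicate 4 12 of 23 were lower in TDP-43 (median -0.01). C-type lectins were negative in 90 of 135 (median -0.31), with 17 lower and 4 higher. Their median was -0.07 without wild type replicate 1, and in replicate 4 73 of 135 were not lower in TDP-43. clec-41 stood at 43.7, 38.9, 26.8 and 58.1 CPM in TDP-43 and at 138, 90.6, 56.9 and 142 CPM in wild type. Lower at both stage levels, it overlapped only through TDP-43 replicate 4 and wild type replicate 3 and had a log2 fold change of -1.36 ± 0.27 (edgeR adjusted p 0.22). It was 1 of the genes called with the replicate block.

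On the other side, all 33 germ line genes were positive (median 0.35), 7 of them higher at an unadjusted p under 0.05 (21.2%). They included glh-1 (0.70 ± 0.23), a helicase of P granules, pgl-1 (0.66 ± 0.22), a P granule scaffold, and the Argonaute gene csr-1 (0.52 ± 0.18). CPM of glh-1 was 313, 416, 339 and 153 in TDP-43 and 159, 211, 329 and 77.9 in wild type. TDP-43 was the higher strain in replicate 4, and in replicates 1 to 3 wild type replicate 3 came within the TDP-43 range. The oocyte and eggshell list, which defines the stage term, had 24 of 24 positive with a median of 0.39, and no member under an unadjusted p of 0.05. With the oocyte level as a covariate in place of the 2-level term, the germ line median was 0.15. It was 0.21 without wild type replicate 1 and 0.57 without wild type replicate 3, and the oocyte median was 0.22 and 0.70 without those libraries.

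Sperm genes had the highest median, 0.66, with 71 of 76 positive and 22 higher at an unadjusted p under 0.05 (28.9%). The size differed with stage: the median difference was 1.89 in replicate 4 and 0.28 in replicates 1 to 3. The fitted median was 0.29 without TDP-43 replicate 4 and 0.27 without wild type replicate 4. Their mean level was 4.33, 4.44, 4.62 and 2.79 log2 CPM in TDP-43, against 4.43, 4.21, 3.88 and 1.11 in wild type. TDP-43 replicate 3 was the highest library for 19 of those 22 genes. ssp-16, a sperm-specific gene, had 22.005, 25.97, 27.997 and 10.7 CPM in TDP-43 and 14.4, 15.7, 15.7 and 3.54 CPM in wild type (0.94 ± 0.24, edgeR adjusted p 0.493). Major sperm protein genes are close copies, so their separate counts are uncertain. Yolk genes changed sign with the stage: all 6 were lower in TDP-43 in replicates 1 to 3 and all 6 higher in replicate 4.

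All 81 ribosomal protein genes were positive, with a narrow spread around a median of 0.22, and 1 was higher at an unadjusted p under 0.05 (rpl-43, 0.38 ± 0.16). The list level was 10.11, 10.16, 10.07 and 10.65 log2 CPM in TDP-43 and 9.77, 9.85, 10.18 and 10.21 in wild type, overlapping through wild type replicates 3 and 4. All 31 proteasome genes were positive (median 0.16) with none at that level, and the median was 0.05 without wild type replicate 1 and 0.36 without wild type replicate 3. RNA interference genes were positive in 41 of 49 (median 0.13; 0.04 without wild type replicate 1 and 0.24 without wild type replicate 3), led by the Argonaute genes ppw-2 (0.66 ± 0.19) and wago-4 (0.85 ± 0.25).

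Lists tied to protein misfolding and RNA processing differed among themselves. The endoplasmic reticulum stress list had a median of -0.02 and the mitochondrial stress list 0.09, each with no member at an unadjusted p under 0.05. Small and inducible heat shock genes were negative in 12 of 17 (median -0.31), with 3 lower at that level (17.6%). Their median was -0.09 without the stage term and -0.04 with the stricter filter. hsp-12.2 had 47.7, 71.3, 69.3 and 155 CPM in TDP-43 and 142, 148, 115.5 and 215 CPM in wild type, with a log2 fold change of -0.95 ± 0.20 (edgeR adjusted p 0.298). It was lower in TDP-43 at each stage level, and the groups overlapped through TDP-43 replicate 4. Splicing and nuclear RNA-binding genes had a median of 0.12 (-0.03 without wild type replicate 1), with 1 of 38 higher at that level (snu-13, 0.51 ± 0.20). Worm orthologs of neurodegeneration genes and modifiers of TDP-43 had a median of 0.11 (-0.00 without wild type replicate 1).

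Cuticle collagen genes had no common direction in the fit: 72 of 143 were positive and the median was 0.00. Within the stage levels fewer were lower in TDP-43: 56 of 143 in replicates 1 to 3 (median 0.07) and 41 of 143 in replicate 4 (median 0.35). All 8 that were higher at an unadjusted p under 0.05 were highest in TDP-43 replicate 3. col-37, for example, had 1.71, 2.198, 18.98 and 0 CPM in TDP-43 and 0.358, 0, 0 and 0 CPM in wild type. In the lists for furrow collagens, molting and hedgehog-related genes, fitted medians near 0 became 0.84, 0.63 and 0.48 without wild type replicate 1. Their levels were widely spread among replicates 1 to 3: molting genes were at 4.61, 3.43, 4.04 and 6.26 log2 CPM in TDP-43 and at 4.92, 3.75, 2.46 and 5.85 in wild type.

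The list medians of the strain term went against those of the stage term. Over the 62 lists Pearson's r was -0.521 and Spearman's rho -0.349, as a description, since lists share genes and all share the same libraries. Of 665 genes lower in TDP-43 at an unadjusted p under 0.05, 74.7% were higher in replicate 4 than in replicates 1 to 3, compared with 53.7% of all genes tested. Among the 418 higher ones the share was 23.9%. Thus genes low in TDP-43 tended to be those high in the yolk-poor libraries, and the reverse. By a strain by stage interaction, the difference itself changed with stage for 6 genes (0.0331%), and for 7.75% at an unadjusted p under 0.05. The part of remaining stage differences in these values was not tested. Lists differed within this relation: furrow collagens (2.80) and molting genes (2.56) had the highest stage medians of the 62 lists and fitted strain medians near 0. Their median differences within the stage levels lay above 0. Furrow collagens had 0.31 in replicates 1 to 3 and 0.58 in replicate 4, and molting genes 0.24 and 0.38.

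**Figure D5:**
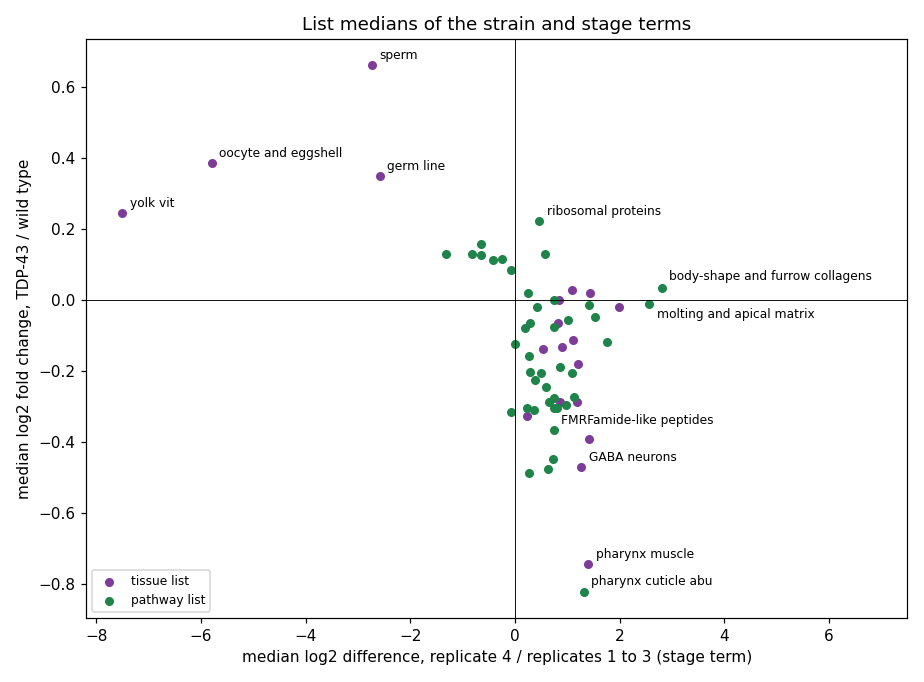
Points are 62 gene lists, with the median log2 difference of replicate 4 over replicates 1 to 3 on the x axis and the median log2 fold change of TDP-43 over wild type on the y axis. Sperm, oocyte and germ line lists lie at the upper left and the pharynx lists at the lower right, while furrow collagens sit at 2.80 on the stage axis and 0.04 on the strain axis.

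By chromosome, X had the lowest median of the nuclear chromosomes, -0.16, with 5.11% of its 2465 genes lower and 1.05% higher at an unadjusted p under 0.05. Chromosome V, with 3608 of the 17087 genes tested, had 5.43% lower and 2.55% higher. It held 6 of the 12 genes past the threshold, but these include the 4 neighbouring pseudogenes and the promoter-linked T10H9.10. X also had the highest stage median of the nuclear chromosomes, 0.77. Pseudogenes went the other way from protein-coding genes. Of 697 tested, 7.03% were higher and 1.15% lower at an unadjusted p under 0.05, with a median of 0.25, whereas 2.24% of 16160 protein-coding genes were higher and 4.00% lower.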

How the data were processed

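The authors deposited raw read counts per gene for 12 libraries; the submitters' processing notes name the build WBcel235 and the tools featureCounts 2.20.0, STAR and R 4.4.2. Strand setting and treatment of multiply mapped reads are not given in the sources used. All 46926 identifiers were found in an Ensembl annotation of that build, which gave symbols, biotypes and coordinates. Columns were matched to samples by name. In R 4.3.3, genes were filtered with filterByExpr (minimum count 10), scaled by TMM and tested with edgeR 4.0.16 (quasi-likelihood, robust; model of stage and strain over 8 libraries; Benjamini-Hochberg, threshold 0.05). Standard errors were derived from the fold change and F statistic. CPM are counts scaled to TMM-adjusted library size, and list levels are mean log2 CPM with a prior count of 2. The fit was tested on simulated data.

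The comparison, the stage term and the lists were chosen with earlier results of these data known. Named genes were all those past the threshold, construct genes, stage markers and, from every list, the 4 or fewer members lowest in p. The genes rab-3 and rgef-1 were fixed checks of neuronal genes. Neighbours of called genes on chromosomes II and V were named after their values were seen. Alternatives were other stage terms, scalings (DESeq2 size factors, upper quartile), filters, DESeq2 1.42.0, limma voom 3.58.1, a replicate block and each library left out. The strain by stage interaction was added after seeing the data.

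Replicate numbers come from the sample titles. Same-numbered libraries deviated together from their group means, with r of 0.214, 0.488, 0.478 and 0.815 for replicates 1 to 4. Some libraries of different number did so too, such as TDP-43 replicate 2 with wild type replicate 3 (0.715), and others did not. Within replicates 1 to 3 alone the same-numbered values were 0.317, -0.069 and -0.0669, and that mismatched pair had 0.42. Pairing by number is therefore uncertain, and the main fit has no replicate block.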

Additional observations from a re-analysis of the deposited data

Results flagged for a closer look

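Replicate 4 stood apart from replicates 1 to 3 of its strain in several values by Dixon's test, which by chance marks about 1 in 20 groups of 4. Among single genes, flp-1 was at 77.1 CPM in TDP-43 replicate 4 (16.95 to 23.3 in the other TDP-43 libraries), and Y102A5C.7 at 9.24 CPM in TDP-43 replicate 4 and 0.572 CPM in wild type replicate 4. In wild type replicate 4, unc-25 was at 127 CPM and C38D9.2 at 3.29 CPM, both above the other wild type libraries. Among list levels, TDP-43 replicate 4 stood apart for ciliated sensory neurons (2.84 log2 CPM), body wall muscle (9.79), pharynx muscle (5.88), oocyte and eggshell (3.73), germ line (4.78) and sperm (2.79). Wild type replicate 4 stood apart for cholinergic neurons (3.83), yolk (1.09) and sperm (1.11). These libraries were marked by the stage term as poor in oocyte and yolk RNA, so the oocyte and yolk lists are partly what chose them.

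For 6 of 18101 genes (0.0331%) the strain difference itself differed between the stage levels, all with an edgeR adjusted p of 0.041 for the interaction term, which was added after seeing the data. Each strain has 1 library on the yolk-poor side, assumed to vary like the others. msra-1, a methionine sulfoxide reductase, had 49.3, 40.8, 47.7 and 417 CPM in TDP-43 and 34.97, 31.3, 30.7 and 32.4 CPM in wild type, an interaction of 3.18 on the log2 scale. acdh-1, an acyl-CoA dehydrogenase, had 428, 471, 348 and 1621 CPM in TDP-43 and 509, 417, 457 and 236 CPM in wild type, an interaction of 2.93. In the other 4 genes wild type replicate 4 was the high library. The P-glycoprotein transporter gene pgp-6 was at 8.32 CPM in TDP-43 replicate 4 and 117 CPM in wild type replicate 4, an interaction of -4.36. F54B8.4 had 2.37 CPM in TDP-43 replicate 4 and 77.5 CPM in wild type replicate 4 (-5.29), ZK228.4 9.90 and 117 CPM (-3.86), and Y58A7A.4 0.666 and 45.7 CPM (-6.72). At an unadjusted p under 0.05 there were 1402 interaction genes (7.75%).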

How the results depend on the processing

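Counts of genes past the threshold, 12 as reported (7 higher, 5 lower), moved with most choices. Without the stage term, over 8 or 12 libraries, 1 gene passed (0 higher, 1 lower). All 12 libraries with the term gave 16, of which 8 lower, and no filter 18, of which 8 lower. Replicates 1 to 3 alone gave 6 (4 higher, 2 lower), upper-quartile scaling 3 (2 and 1), the stricter filter 2 (1 and 1), and limma voom 8 with 3 higher. DESeq2's Wald test called 83 (32 higher, 51 lower). The replicate block, which contains the stage term's split, gave 25 (14 and 11). Leaving out each library gave 3 to 24 genes, 2 to 13 higher and 1 to 11 lower, with 2408 at an unadjusted p under 0.05 without wild type replicate 3. The stage count, 8448, was 4682 without TDP-43 replicate 4 and 5237 without wild type replicate 4, and from 4682 to 9309 over the fits that leave out 1 library. The cause of these shifts was not tested.

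zig-2 passed throughout, Y102A5C.5 and Y102A5C.6 failed only without the stage term, and the other 9 genes failed in 8 to 13 alternatives, with no change of direction. Of 62 list medians 21 changed sign in some alternative, among them body wall muscle, collagens, molting, yolk and touch receptor genes, and 30 had an extreme value without wild type replicate 1. Scalings moved the median of all genes by less than 0.1 on the log2 scale. Genes with few counts, such as Y102A5C.35 and T10H9.10, limit the precision of their fold changes.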
